A study of Mus musculus with 8 samples.

Results

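The genes described here are the metallothioneins Mt1 and Mt2, their regulator Mtf1, and carriers of zinc and manganese in the liver. Metallothioneins are small cytosolic proteins whose many cysteines bind zinc and copper. Their transcription rises when the metal-responsive factor MTF1 senses free zinc, and the liver also raises it in response to glucocorticoids and inflammatory cytokines. Carriers of the SLC39 (ZIP) family bring metal into the cytosol, and carriers of the SLC30 (ZnT) family move it out of the cytosol.

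Membership was by gene name. For each of 8 named genes, the probe sets annotated to that gene alone were kept and the brightest over all arrays was used. This gave 7 measured genes of 22180 genes on the array: Mt1, Mt2, Mtf1, Slc39a14, Slc39a8, Slc39a4 and Slc39a5. The remaining one, the manganese exporter gene Slc30a10, had only probe sets that also name a predicted gene, so no value was given to it. All 7 measured genes had means above the median gene of the table.

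Livers came from 8 mice of the C57BL/6N strain at 27 days of age, with 1 Affymetrix whole-transcript array per mouse. The 4 knockout mice carried the albumin-driven Cre, active in hepatocytes, and 2 floxed copies of Sco1, whose product is a mitochondrial copper chaperone needed to assemble cytochrome c oxidase (genotype Albumin-Cretg/wt:Sco1fl/fl). The 4 wild-type mice were of 2 genotypes. In mice 1 and 3 the Cre was present and a single Sco1 allele was floxed (Albumin-Cretg/wt:Sco1fl/wt). In mice 2 and 4 both alleles were floxed and Cre was lacking (Albumin-Crewt/wt:Sco1fl/fl). The titles, by contrast, call all 4 wild-type mice Sco1fl/fl and do not mention Cre for them. Deletion is directed by the albumin promoter, and Sco1 by cell type was not measured. Array values are RMA expression values taken as log2 units, so a difference of 1 is a doubling.

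Sco1 itself was at 7.48, 7.62, 7.72 and 7.56 log2 units in knockout mice 1 to 4 and at 7.84, 7.93, 8.19 and 8.04 in wild-type mice 1 to 4. The groups did not overlap, and the difference was -0.41 ± 0.09 (SE; by limma, the p adjusted over all genes was 0.0633). The exact two-sided permutation p was 0.0286, the smallest that 4 arrays against 4 allow. Which exons the probes read was not known. The summed linear signal of 6 hepatocyte markers, Alb among them, was 63506 to 64995 in the knockout and 61415 to 63391 in the wild-type livers. Correlations between arrays across genes lay at 0.99 or above. Knockout mouse 4 stood apart in the mean of 3 Y-linked genes, 7.36 against 8.6 to 8.86 in the other mice. The female-expressed gene Xist was at 5.01 in that mouse, within the 4.59 to 5.06 of the others. Mouse 1 of each group stood apart in the clock gene Dbp, 9.66 and 9.86 against 6.87 to 7.33.

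Because Mt1 and Mt2 lie next to each other, their promoter windows are shown first. Each holds 300 bases, 250 before and 50 after a start site listed for the build GRCm38.p6. Capitals mark the 7-base core of the metal response element bound by MTF1, searched as TGCACNC and TGCGCNC on both strands. The Mt1 window is chr8:94178839-94179138 and the Mt2 window chr8:94172368-94172667, both on the plus strand.
Mt1: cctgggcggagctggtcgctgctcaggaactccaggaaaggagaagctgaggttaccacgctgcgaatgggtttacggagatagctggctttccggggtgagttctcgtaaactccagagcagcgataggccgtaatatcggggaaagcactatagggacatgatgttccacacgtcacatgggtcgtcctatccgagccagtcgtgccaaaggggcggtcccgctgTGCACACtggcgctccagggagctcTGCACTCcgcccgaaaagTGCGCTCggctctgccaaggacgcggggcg
Mt2: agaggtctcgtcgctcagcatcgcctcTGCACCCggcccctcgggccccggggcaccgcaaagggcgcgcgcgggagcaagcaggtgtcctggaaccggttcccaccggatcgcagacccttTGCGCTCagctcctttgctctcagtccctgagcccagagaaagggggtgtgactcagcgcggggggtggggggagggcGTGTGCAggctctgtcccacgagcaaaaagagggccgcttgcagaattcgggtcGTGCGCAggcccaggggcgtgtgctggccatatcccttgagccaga
The Mt1 window held 3 matches, all on the strand shown, starting at positions -23, 3 and 21 from the start site used. RefSeq's record of the Mt1 gene begins at 94178883, inside this window and before that start site. The Mt1 positions therefore hold for the start site used and not for the start of the gene record. The Mt2 window held 4, 2 on each strand, starting at -223, -128, -50 and 5. No match overlapped another in these 2 windows. At least 3 matches stood in 1.97% and at least 4 in 0.517% of the 32851 mouse promoter windows of the same length, a background not matched for base composition. The core was absent from the Mtf1 window. It was found 1 time in 1 of 2 windows of Slc39a8, 1 time in 1 of 2 windows of Slc39a5, and 3 times in the window of Slc30a10, where 2 of the 3 matches overlap on opposite strands. A match is a description of letters and not a site of binding. Windows were matched for 6 of the 8 named genes.

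Mt1 was higher in the knockout livers. Its level was 10.06, 10.34, 10.01 and 9.39 log2 units in knockout mice 1 to 4 and 9.34, 8.46, 8.70 and 8.52 in wild-type mice 1 to 4. Every knockout value lay above every wild-type value, but knockout mouse 4 exceeded wild-type mouse 1 only narrowly, while the other knockout mice were well clear of all controls. Means were 9.95 ± 0.40 and 8.76 ± 0.40 (SD, n = 4 each). Mt1 thus rose by 1.20 ± 0.22 (SE), a 2.29-fold difference with a 95% interval of 1.64 to 3.2 (limma with Benjamini-Hochberg adjustment, adjusted p = 0.0312). Of all genes, 0.433% were called higher, 0.717% lower and 1.15% were called in either direction in this comparison, and 10.7% had groups that did not overlap. The exact two-sided permutation p of Mt1 alone was 0.0286, the smallest possible.

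Mt2 showed the same order of size but did not pass. It was at 11.01, 11.08, 10.81 and 10.01 log2 units in knockout mice 1 to 4 and at 10.15, 9.55, 9.78 and 9.53 in wild-type mice 1 to 4. The groups overlapped through knockout mouse 4, which lay below wild-type mouse 1, whereas the other knockout mice lay above all controls. The means were 10.73 ± 0.49 and 9.75 ± 0.29 (SD, n = 4 each). The difference was 0.98 ± 0.22 (SE), or 1.97-fold with a 95% interval of 1.41 to 2.75 (limma, adjusted p = 0.0591). Its exact two-sided permutation p was 0.0571.

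**Figure D1:**
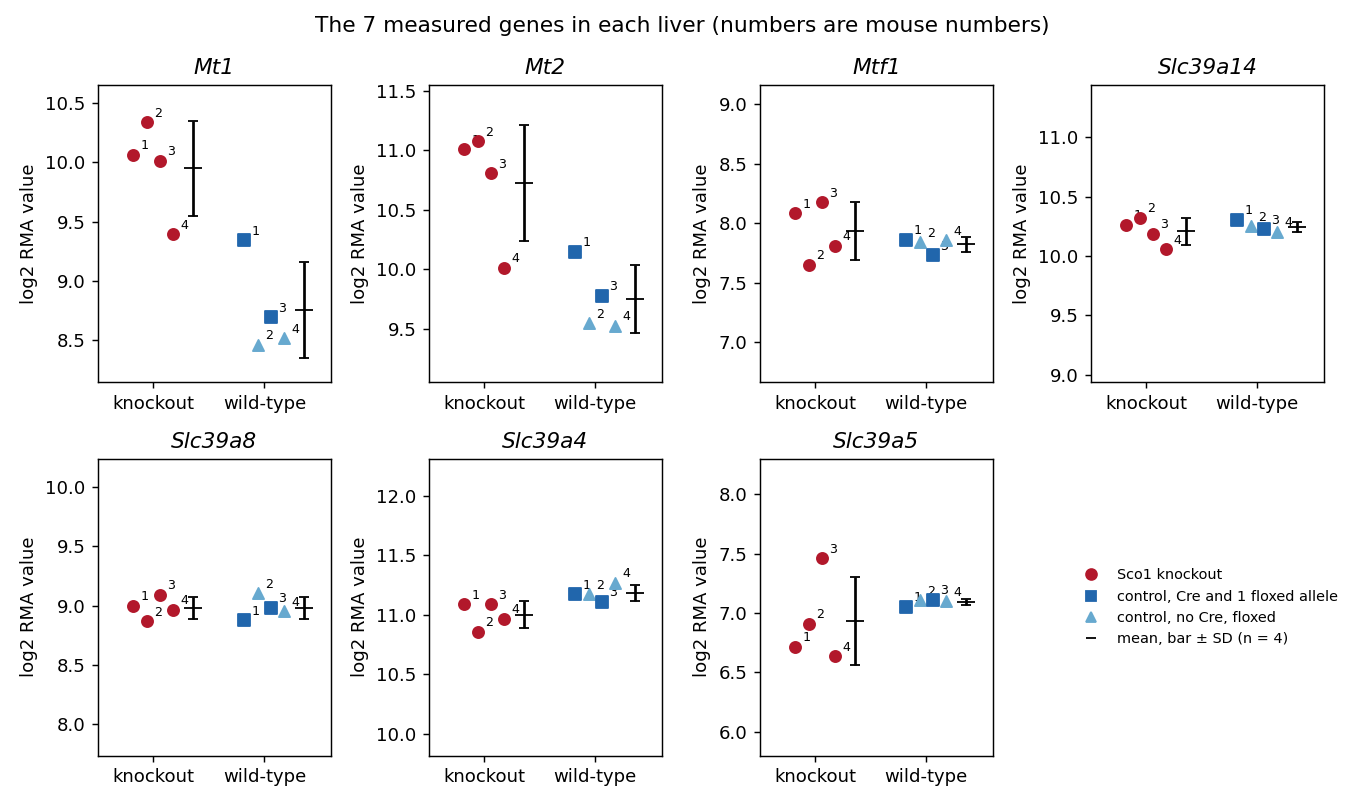
Level of each measured gene in every liver (y axis, log2 RMA value, every panel spanning the same number of log2 units; points are mice, labelled by mouse number, with the mean and SD of each group beside them). Mt1 separates the groups, with knockout values of 9.39 to 10.34 against 8.46 to 9.34, Mt2 separates them apart from knockout mouse 4, and Slc39a5 is spread in the knockout from 6.64 to 7.46 while the wild-type mice lie between 7.05 and 7.11.

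The 2 metallothioneins ranked the mice almost alike. For both, the highest livers were those of knockout mice 2, 1 and 3 in that order. Next came knockout mouse 4 and then wild-type mouse 1 for Mt1, and the reverse for Mt2. Relative to the wild-type mean, knockout mouse 2 stood at 1.58 log2 units for Mt1 and 1.33 for Mt2, and knockout mouse 4 at 0.64 and 0.26. Wild-type mouse 1 stood at 0.59 and 0.40, higher than the other controls for both genes. The Mt1 difference exceeded the Mt2 difference by 0.22 log2 units, which did not pass an exact two-sided permutation test (p = 0.0571, smallest possible 0.0286). Mt1 and Mt2 are close relatives in sequence, and whether their probe sets read each other was not known.

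**Figure D2:**
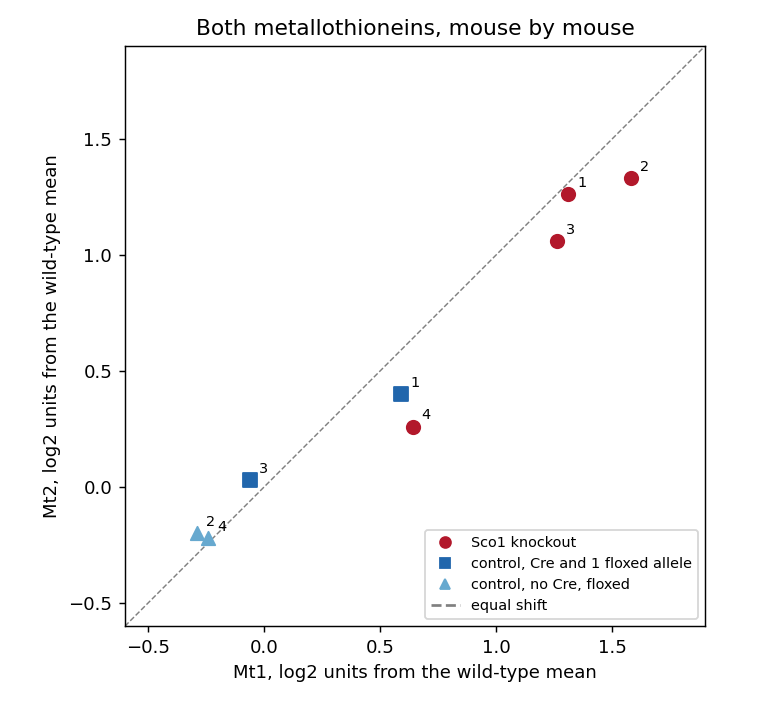
Shift of Mt2 (y axis) against shift of Mt1 (x axis) in each mouse, both in log2 units from the mean of the 4 wild-type mice, with a dashed line of equal shift. Knockout mice 1, 2 and 3 lie at 1.26 to 1.58 for Mt1, while knockout mouse 4 (0.64) lies beside wild-type mouse 1 (0.59).

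The controls divided by genotype in the same order for both genes. Mt1 averaged 9.02 in the 2 controls with Cre and 1 floxed allele and 8.49 in the 2 Cre-free controls, and Mt2 averaged 9.96 and 9.54. Neither gene's control classes overlapped, as was the case for 30.7% of all genes. The order of mean levels was therefore knockout, Cre-carrying control, Cre-free control. The gap between the control classes was 0.53 ± 0.28 log2 units for Mt1 and 0.43 ± 0.30 for Mt2 (SE, n = 2 each), and neither was distinguishable from the spread between mice (limma over 3 groups with Benjamini-Hochberg adjustment, adjusted p = 1.0 for both; 0.0% of 22180 genes called, 671 at an unadjusted p under 0.05). Without wild-type mouse 1 the gap was 0.21 for Mt1 and 0.24 for Mt2, with 1 Cre-carrying mouse left and no test. Against the Cre-free controls the knockout difference of Mt1 was 1.46 ± 0.24 (adjusted p = 0.0536), and against the Cre-carrying controls it was 0.93 ± 0.24 (adjusted p = 0.201). For Mt2 these were 1.19 ± 0.26 (adjusted p = 0.116) and 0.77 ± 0.26 (adjusted p = 0.296). Of all genes, 0.212% were called against the Cre-free and 0.131% against the Cre-carrying controls. Neither metallothionein passed in these comparisons, in which each control class held 2 mice.

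The calls of Mt1 and Mt2 changed with the arrays left out. Omitting an array also lowered the calls over all genes, from 96 higher and 159 lower to 29 to 65 and 60 to 119. With each array left out in turn, Mt1 differed by 1.07 to 1.39 log2 units and passed in 2 of 8 cases, without knockout mouse 4 (adjusted p = 0.0199) and without wild-type mouse 1 (adjusted p = 0.0152). Leaving out knockout mouse 1, 2 or 3, or wild-type mouse 2, 3 or 4, ended the call, with adjusted p of 0.0708 to 0.0913 (limma with Benjamini-Hochberg adjustment). Mt2 passed in 1 of 8 cases, without knockout mouse 4, where the difference was 1.22 ± 0.15 (SE; adjusted p = 0.0122). With the level of the Y-linked genes as a covariate, low in that same mouse, Mt1 stood at 1.40 ± 0.20 (adjusted p = 0.0206) and Mt2 at 1.24 ± 0.15 (adjusted p = 0.0115). Without both mouse 1 arrays, which were high in Dbp, Mt1 stood at 1.35 ± 0.21 (adjusted p = 0.0476) and Mt2 at 1.02 ± 0.24 (adjusted p = 0.118).

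**Figure D3:**
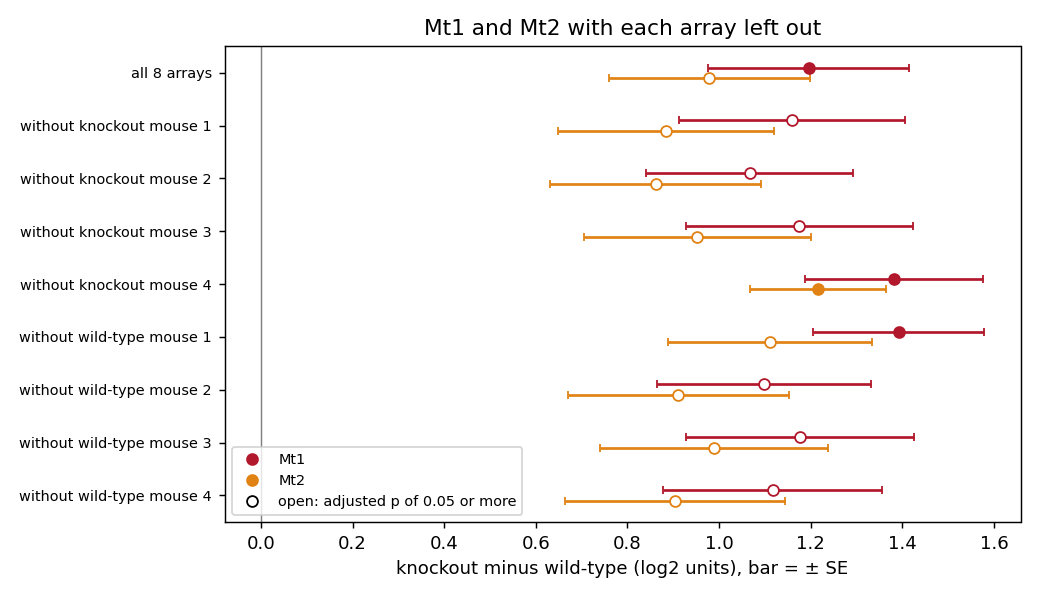
Difference of Mt1 (red) and Mt2 (orange) between knockout and wild-type livers on the x axis in log2 units, with SE, for all 8 arrays and with each array left out (y axis); filled points passed the adjusted threshold of 0.05. All differences lie between 0.86 and 1.39, and Mt2 is filled solely without knockout mouse 4.

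Mtf1, the transcription factor that senses zinc and drives the metallothionein genes, did not pass. Its values were 8.09, 7.65, 8.18 and 7.81 log2 units in knockout mice 1 to 4 and 7.86, 7.84, 7.73 and 7.86 in wild-type mice 1 to 4. The knockout mice lay on both sides of the controls, mice 1 and 3 above and mice 2 and 4 below most of them. The difference was 0.11 ± 0.11 (SE; adjusted p = 0.657), with a 95% interval of -0.14 to 0.36, which leaves out changes of the size measured for Mt1. Knockout mouse 2, the highest for both metallothioneins, was the lowest for Mtf1. Knockout mice 1 and 3, which came next for both metallothioneins, were the highest for Mtf1. Knockout mouse 4, the lowest knockout liver for both, stood at 7.81.

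The carriers Slc39a14 (ZIP14) and Slc39a8 (ZIP8) take up zinc, manganese and iron, and ZIP14 is known as an inflammation-induced importer of hepatocytes. Slc39a14 was at 10.26, 10.32, 10.19 and 10.06 log2 units in the knockout and at 10.30, 10.25, 10.22 and 10.20 in the wild-type mice, with overlapping groups. The knockout minus wild-type difference was -0.04 ± 0.08 (SE), and its 95% interval of -0.21 to 0.14 corresponds to 0.864-fold to 1.1-fold (adjusted p = 0.845). Slc39a8 was at 8.999, 8.87, 9.09 and 8.96 in the knockout and at 8.88, 9.11, 8.98 and 8.95 in the wild-type mice. These groups overlapped fully. The difference was 0.00 ± 0.08 (SE) with a 95% interval of -0.18 to 0.18 (adjusted p = 0.994), and its sign changed between settings.

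Slc39a4 (ZIP4) is the zinc importer whose human counterpart is mutated in acrodermatitis enteropathica. It was at 11.09, 10.86, 11.09 and 10.97 log2 units in knockout mice 1 to 4 and at 11.18, 11.17, 11.11 and 11.27 in wild-type mice 1 to 4. All knockout livers lay below all wild-type livers, by a small margin. The difference was -0.18 ± 0.08 (SE), or 0.882-fold, and did not pass (limma, adjusted p = 0.29), although its unadjusted p in that fit was under 0.05. Of all genes, 16.7% had an unadjusted p under 0.05.

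Slc39a5 (ZIP5), a carrier of the basolateral membrane of polarised epithelia, varied more among the knockout than among the wild-type livers. It was at 6.72, 6.91, 7.46 and 6.64 log2 units in knockout mice 1 to 4, whereas the wild-type mice lay together at 7.05, 7.11, 7.11 and 7.10. Knockout mouse 3 was above and the other knockout mice below all controls. The difference of means was -0.16 ± 0.15 (SE; adjusted p = 0.62). Without knockout mouse 3 it was -0.34 ± 0.09 (adjusted p = 0.136). The SD was 0.37 in the knockout and 0.03 in the wild-type group, a ratio of 13.3, and 0.194% of all genes had a ratio as large. For Mtf1 the ratio was 3.9, reached by 4.7% of genes, and for Slc39a14 it was 2.62, reached by 12.3%. These ratios were compared after the values were seen, have no test, and are read against a median ratio of 1.17 over all genes.

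Of the 7 measured genes, 1 rose, 0 fell and 6 missed the threshold, while 3 had an unadjusted p under 0.05. Their median difference was 0.002 log2 units, against 0.0268 over all genes. Over all genes, 0.433% rose, 0.717% fell, 16.7% had an unadjusted p under 0.05 and 10.7% had groups that did not overlap. Positive differences were found for 12676 of the 22180 genes. These shares are the background for the counts of lists and markers that follow. The rest of the zinc carrier families did not pass either. None of 10 other ZIP genes was called by limma (1 at an unadjusted p under 0.05; median difference -0.08), 3 of them with positive differences. Slc39a7, which releases zinc from the endoplasmic reticulum, had the smallest p, with a difference of -0.31 ± 0.14 (SE; adjusted p = 0.28), followed by Slc39a9 at -0.18 ± 0.08 (adjusted p = 0.302). Slc39a12 stood at -0.15 ± 0.10 (adjusted p = 0.474). None of 8 other ZnT genes was called (2 at an unadjusted p under 0.05; median -0.08). Slc30a3, which loads zinc into synaptic vesicles, stood at -0.40 ± 0.11 (adjusted p = 0.104) and Slc30a8, the carrier of insulin granules, at 0.28 ± 0.08 (adjusted p = 0.11), both with groups that did not overlap. Slc30a8 was dim, at 3.88 in the knockout and 3.61 in the wild-type livers. Slc30a6 stood at -0.19 ± 0.09 (adjusted p = 0.302). Slc30a1, the exporter gene that MTF1 induces, was not analysed here.

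**Figure D4:**
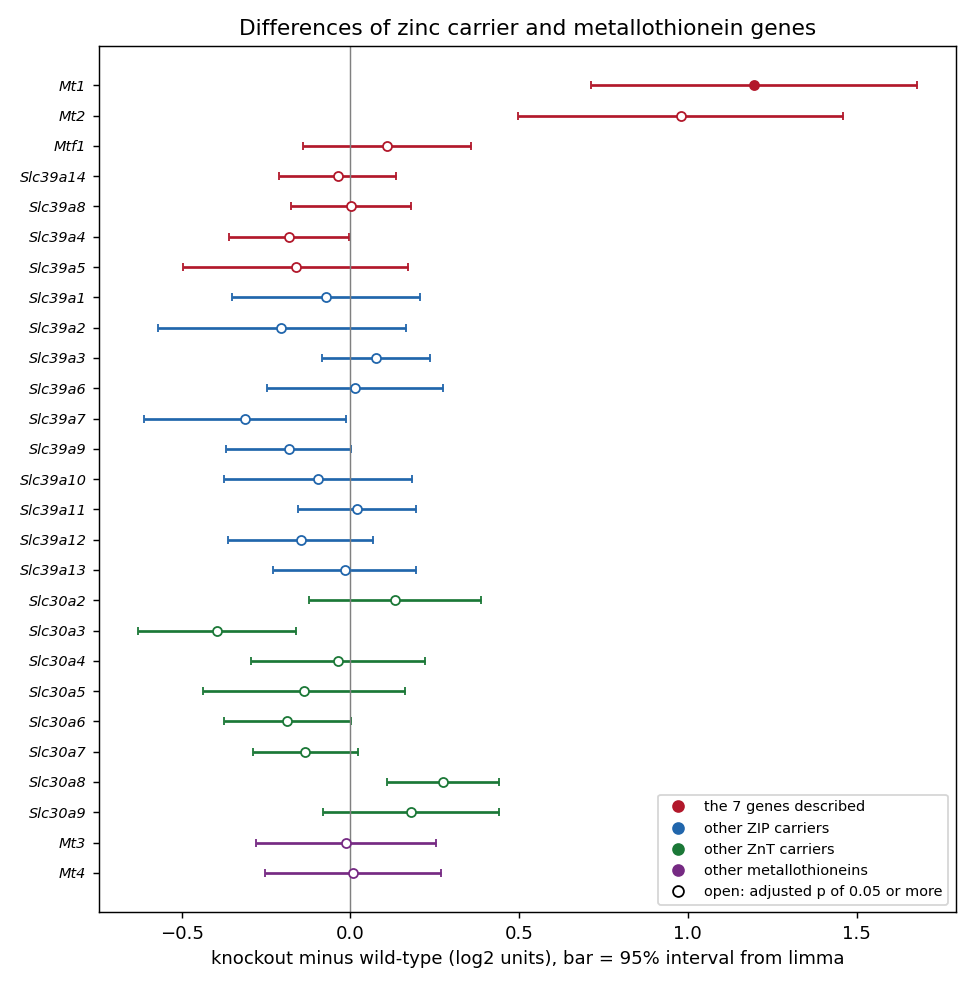
Knockout minus wild-type difference (x axis, log2 units, with the 95% interval from limma) for the 7 genes described and for the other ZIP, ZnT and metallothionein genes (y axis); filled points passed the adjusted threshold of 0.05. Mt1 (1.20) is the single filled point, Mt2 (0.98) lies near it, and the carriers lie between -0.40 and 0.28.

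Mt3 and Mt4, the other metallothioneins of the same chromosomal cluster, are genes of brain and squamous epithelium. They were dim and did not differ beyond their error, at -0.01 ± 0.12 and 0.01 ± 0.12 log2 units (SE; adjusted p = 0.971 and 0.981). The measured genes on either side of the cluster were looked up after the values were seen. Nudt21, Ogfod1 and Bbs2 on the Mt4 side stood at -0.13 ± 0.08, -0.13 ± 0.08 and -0.07 ± 0.08 (SE), with adjusted p of 0.426 to 0.697. On the Mt1 side, Nup93 stood at -0.14 ± 0.08, Mir138-2 at -0.17 ± 0.11 and Slc12a3 at 0.20 ± 0.09, with adjusted p of 0.318 to 0.469. None of these 6 neighbours passed, and their differences lay between -0.17 and 0.20 log2 units.

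Genes known to respond to the same inducers as the metallothioneins were listed as well. None of 5 measured MTF1 targets other than metallothioneins was called (1 at an unadjusted p under 0.05, median 0.10). The list was not divided by direction of response and has no value for Slc30a1, so its median is no measure of MTF1 activity. Selenow, a small selenoprotein gene, was at 11.005, 10.51, 10.70 and 10.21 log2 units in knockout mice 1 to 4 and between 10.15 and 10.29 in the wild-type mice, a difference of 0.39 ± 0.14 (SE; adjusted p = 0.201). Gclc, of glutathione synthesis, stood at 0.11 ± 0.07, Csrp1 at 0.10 ± 0.12, Slc39a10 at -0.10 ± 0.13 and Ndrg1 at -0.04 ± 0.14.

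None of 9 measured glucocorticoid targets, a list that holds Mt2, was called (2 at an unadjusted p under 0.05, Mt2 among them; median -0.02). Pdk4, a kinase that restrains pyruvate oxidation, stood at 0.55 ± 0.22 (SE; adjusted p = 0.247), and Dusp1, a MAP kinase phosphatase gene, at -0.47 ± 0.23 (adjusted p = 0.341). Among 14 targets of IL-6 and STAT3 none was called, 4 had an unadjusted p under 0.05, 2 had positive differences and the median was -0.11. The groups did not overlap for 7 of the 14, all lower in the knockout except Lcn2, against 10.7% of all genes. The metalloreductase gene Steap4 stood at -0.41 ± 0.09 (adjusted p = 0.0503), Lcn2, an iron-siderophore binding protein gene, at 0.45 ± 0.11 (adjusted p = 0.0713), and the haptoglobin gene Hp at -0.16 ± 0.07 (adjusted p = 0.28). None of 8 NRF2 targets was called (3 at an unadjusted p under 0.05; median -0.09), the quinone reductase gene Nqo1 standing at -0.37 ± 0.12 (adjusted p = 0.166). Gstm1 stood at -0.26 ± 0.11 and Txnrd1 at -0.21 ± 0.09.

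None of 6 fasting genes was called (3 at an unadjusted p under 0.05; median 0.25). The hormone gene Fgf21 stood at 0.53 ± 0.12 (adjusted p = 0.0672), Igfbp1 at 0.45 ± 0.12 (adjusted p = 0.0952) and Ppargc1a at 0.52 ± 0.18 (adjusted p = 0.184), the first and second with groups that did not overlap. None of 8 clock genes was called, and none had an unadjusted p under 0.05.

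Among 7 measured liver zinc enzymes 1 rose, none fell and 6 did not pass (median 0.07). Alpl, tissue-nonspecific alkaline phosphatase, was at 9.07, 8.89, 8.90 and 8.95 log2 units in knockout mice 1 to 4 and at 7.98, 8.52, 8.33 and 8.36 in wild-type mice 1 to 4. The groups were clearly apart, and wild-type mouse 1, the highest control for Mt1, was the lowest for Alpl. It rose by 0.65 ± 0.11 (SE; adjusted p = 0.0237). Leaving out knockout mouse 1, 3 or 4, or wild-type mouse 3 or 4, ended the call (adjusted p up to 0.0626), and the other 3 omissions did not. It was also lost with the Cre-carrying controls alone (adjusted p = 0.0646), the Cre-free controls alone (0.131), the Y-linked covariate (0.0538) and without both mouse 1 arrays (0.0608), the difference staying at 0.51 to 0.80 over 22 alternatives, 13 of which kept the call. Alad, a zinc enzyme of heme synthesis, stood at 0.18 ± 0.08 and Car2, a carbonic anhydrase gene, at 0.23 ± 0.12.

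Of 7 manganese and iron carriers none was called (1 at an unadjusted p under 0.05; median 0.07). Slc11a2, the divalent metal transporter DMT1, stood at -0.29 ± 0.10 (SE; adjusted p = 0.206), Slc11a1 at 0.21 ± 0.11 and the iron exporter gene Slc40a1 at 0.24 ± 0.14. Among 9 copper carriers and chaperones, a list that holds the floxed gene Sco1, none rose, 1 fell and 8 did not pass (median -0.12). An unadjusted p under 0.05 was found for 2 of them, Ccs and Sco1. The groups did not overlap for 4, Sco1 among them, against 10.7% of all genes. Ccs, the chaperone that loads copper into superoxide dismutase, fell by 0.65 ± 0.13 (adjusted p = 0.0483). Omitting any liver but that of knockout mouse 2 ended this call (adjusted p up to 0.122), with differences of -0.77 to -0.55. Over 22 alternatives the call was kept in 8, with differences of -0.77 to -0.52 and adjusted p up to 0.277.

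Genes with profiles nearest to the metallothioneins were sought by the root mean square difference over the 8 arrays, after each gene's own mean was subtracted. The nearest to Mt1 was Mt2, at 0.159 log2 units, and the reverse also held. The median gene lay 0.693 from Mt1 and 0.604 from Mt2. After Mt2, the genes nearest to Mt1 were the olfactory receptor gene Olfr134 (0.348), the phospho-lyase gene Etnppl (0.353), Cln6, which encodes an endoplasmic reticulum protein (0.37), and the phospholipase gene Pla2g12a (0.387), all more than 2 times as far. After Mt1, those nearest to Mt2 were Olfr1286 (0.294), Olfr134 (0.3), the sodium channel gene Scn1a (0.313) and the flavin monooxygenase gene Fmo2 (0.326). The olfactory receptor genes and Scn1a were dim, with group means from 3.47 to 4.82. Etnppl and Cln6 rose by 0.92 ± 0.07 and 1.19 ± 0.14 (SE), with adjusted p of 0.000946 and 0.00366, and passed with each array left out in turn. Cln6 did not pass with only the Cre-carrying controls (limma, adjusted p = 0.0646). Olfr134 and Scn1a were also called (limma, adjusted p = 0.0414 and 0.0312), but each kept the call in 1 of 8 omissions. Genes picked for a profile near Mt1 or Mt2 share the group difference through that choice.

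Markers of other cells were summed on a linear scale beside these results. As background for their direction, 12676 of all 22180 genes had positive differences. None of 7 Kupffer cell and macrophage markers was called (1 at an unadjusted p under 0.05), all 7 had positive differences, and their sum was 7063 to 9377 in the knockout and 6332 to 8559 in the wild-type livers. None of 5 lymphocyte markers was called (3 at an unadjusted p under 0.05), all 5 differences were positive, and their sums did not overlap, at 487 to 629 and 428 to 457. Both sums were highest in knockout mouse 4, the knockout liver with the lowest Mt1 and Mt2. For 8 neutrophil markers the sums were 315 to 396 and 296 to 340, and for 5 stellate cell markers 5977 to 6298 and 5964 to 6400. Sums of 4 endothelial markers did not overlap, at 5993 to 6523 and 5262 to 5897. Those of 5 bile duct markers, 492 to 612 and 541 to 652, of 5 pancreatic acinar markers, 335 to 378 and 308 to 358, and of 5 enterocyte markers, 2551 to 2959 and 2548 to 2818, overlapped. Most of the enterocyte sum came from Apoa4, at 11.255 log2 units in the knockout and 11.263 in the wild-type livers. The remaining enterocyte markers lay below the median gene, so the sum is no measure of them. Muscle markers, 4 in number, summed to 256 to 348 and 224 to 252, which did not overlap, nor did the sums of the hepatocyte markers given above. The muscle markers other than Acta1, and all neutrophil markers, were dim and lay below the median gene. None of these marker lists, that of hepatocytes included, held a called gene. Array values have no zero, so no marker can be said to be absent, and the part of these cells in the metallothionein difference was not tested. In whole liver, more RNA per cell and more cells with the RNA cannot be told apart.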

How the data were processed

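Liver RNA of 8 mice was measured on 1 array each, with groups from the titles and control classes from the genotype labels. The authors deposited RMA values for 39137 probe sets, made with oligo version 1.24 per the submitters' processing notes. That the deposited values are log2 was inferred from the method and from their range of 1.28 to 13.88. The chip definition is not given in the sources used here, nor is the genome build. Through the platform annotation 23521 probe sets had 1 symbol, 1814 several and 13802 none; 23328 were found by gene number in RefSeq's GRCm38.p6 table. Probe sets with 1 symbol gave 22180 genes, each by its brightest probe set.

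Differences were fitted with limma (version 3.58.1; R version 4.3.3; lmFit and eBayes, with no covariate), two-sided, and adjusted by Benjamini-Hochberg over all genes with a threshold of 0.05. Errors are SDs over mice or limma SEs. Steps were checked on simulated data. Permutation tests (scipy version 1.17.1) enumerated all 70 assignments. The genes, the lists, the markers and the rule for named genes (all measured members, up to 3 genes of smallest p per list and the 5 nearest profiles) were chosen with earlier results of these data known. Neighbouring genes and spread ratios were chosen after the values were seen. The files give no sex, slide or scan date, replicates are separate mice, and the number of arrays limits precision. Alternatives varied the variance model, array scaling, dim-gene filter, probe set rule, array weights, covariates, control class and the arrays left out; leaving out both mouse 1 arrays was chosen after seeing the data. Mouse numbers did not pair the groups, apart from the mouse 1 livers, which deviated together.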

Additional observations from a re-analysis of the deposited data

Results flagged for a closer look

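Wild-type mouse 3 lay apart from the rest of its group for Mtf1, at 7.73 log2 units against 7.84 to 7.86 in the other wild-type livers. It was found by the gap to its nearest neighbour as a share of the group's range, above the 95% critical value of Dixon's test. Chance marks about 1 group in 20 in this way, and 16 groups were examined (7 genes and Sco1 in 2 groups). No other liver was marked.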

How the results depend on the processing

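The count of measured genes called higher, 1 as reported, was 2 (Mt1 and Mt2) with genes above the median, with genes above the lower quartile, with array weights and with the Y-linked covariate. It was 0 with only the Cre-carrying controls, with only the Cre-free controls and with Cre as a covariate, where 2 mice stand for the control level, and 0 to 2 with 1 array left out. With mouse number as a replicate block it was 2, Mt2 reaching an adjusted p of 0.026; same-numbered mice deviated together at correlations of 0.273, -0.0217, 0.0309 and -0.102, so the numbers do not pair them, and 1 of 4 knockout mice correlated best with its own number. None was called lower under any of the 22 alternatives. Mt1 lay at 0.93 to 1.46 log2 units (adjusted p 0.0152 to 0.273, called in 13) and Mt2 at 0.77 to 1.24 (adjusted p 0.0115 to 0.372, called in 6). The sign of Slc39a8 turned with centred arrays (-0.028), array weights (-0.0052), Cre-free controls (-0.047) and without both mouse 1 arrays (-0.038), and lay at -0.036 to 0.044 with 1 array left out. Slc39a14 turned to 0.018 with the Y-linked covariate and lay at -0.075 to 0.013 with 1 left out. The cause of these changes was not tested. Over all genes, 96 higher and 159 lower calls became 159 and 300 with a trended robust variance, 86 and 271 with centred arrays, 123 and 319 above the median gene, 155 and 301 above the lower quartile, 131 and 245 with array weights, 45 and 106 with the Y-linked covariate, 4 and 2 with Cre-carrying controls, 7 and 9 with Cre-free controls, 13 and 16 with Cre as a covariate, 28 and 37 without mouse 1, and 29 to 65 and 60 to 119 with 1 left out.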
